A study of Mus musculus with 8 samples.

Results

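The 44 genes described here encode the centromere, the kinetochore, the spindle checkpoint and the complexes that protect and correct chromosome attachment in mitosis. They were chosen by symbol, from a list of 44 names, in a table of 26642 genes and loci, and all 44 were found on 1 row each and passed the filter on low counts. The mRNA was taken from cultures of CT26, an established tumour line from mouse colon grown in RPMI medium with serum. There were 4 libraries of unedited cells (WT) and 4 of cells in which both Tead1 and Tead4 were knocked out (KO). TEAD proteins bind DNA and carry the YAP and TAZ coactivators, through which Hippo signalling acts on growth. The labels give neither the edited sequence nor whether the knockout is 1 clone. Separate cultures for each replicate are not stated, so the p-values reflect the scatter of these libraries alone, and that scatter may be technical.

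A kinetochore is the protein structure, built on each centromere, that holds a chromosome to spindle microtubules. A histone H3 variant, CENP-A, marks the site, a constitutive network of inner kinetochore proteins sits on it through the cell cycle, and the outer KMN network (the KNL1, MIS12 and NDC80 complexes) binds microtubules in mitosis. Unattached kinetochores recruit the checkpoint proteins of the BUB and MAD families, which hold back anaphase, while the chromosomal passenger complex releases faulty attachments and shugoshins protect cohesion at the centromere. Many of these genes are transcribed mainly in late S, G2 and M phase. In bulk RNA, fewer cells in these phases and less messenger RNA per cell cannot be told apart.

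Promoters of genes that peak in G2 and M phase often carry a cell cycle homology region (CHR), bound by the DREAM and MYB-MuvB complexes, close to the transcription start, and CCAAT boxes bound by NF-Y. RefSeq promoter windows on GRCm38.p6, from 250 bases before to 50 bases after a start, were matched for 38 of the 44 genes (43 windows, since some genes have several starts). The CHR was searched as TTTGAA or TTTAAA, the CCAAT box as CCAAT and an E2F-type element as TTGGCGC or TTCCCGC, on both strands. Matches of different motifs were allowed to overlap. A CHR match was found in 20 of the 38 genes (52.6%), against 22.5% of the 9214 tested genes with a window, and a CCAAT box in 26 (68.4%) against 43.7%. An E2F-type match was found in 12 (31.6%) against 14.4%. The CHR matches lay near the start: 16 of the 38 genes (42.1%) held one from 50 bases before to 50 bases after it, against 6.10% of the tested genes. In the 250 bases before the start alone, 28.9% of the 38 genes held a CHR match, against 20.8% of the tested genes, so much of the difference in share lay after the start. A match is a description of the letters and does not show that a factor binds there.

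The CHR match nearest the start is given for 5 genes, each the gene with the smallest p among those with a match in its role group. The matched letters are alike because the search fixed them. Each run is 5′ to 3′ on the gene's strand, with the match in capitals (TTCAAA is the reverse complement of TTTGAA). They lie at chr1:189688067-189688096 (minus strand), chr2:119047138-119047167 (plus), chr8:116921719-116921748 (plus), chr2:118598239-118598260 (plus, shortened where the window ends) and chr14:57826160-57826189 (minus).
Cenpf: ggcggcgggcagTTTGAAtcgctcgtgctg
Knl1: agggcggttagaTTTGAAtacttcagggac
Cenpn: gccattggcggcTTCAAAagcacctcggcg
Bub1b: agagacgttaaaTTTGAAactt
Ska3: gcctgcgcaggaTTCAAAtgtgtagcgcgt
The match began 9 bases before the start in Cenpn and 14 before it in Ska3, and 2, 31 and 40 bases after it in Cenpf, Knl1 and Bub1b.

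The 160 bases before the start are shown for Cenpf, the gene with the lowest fold change, and Cenpn, and for Zwint, the gene whose level differed least, which was added after its values were seen. Capitals mark CHR and CCAAT matches (ATTGG is the reverse complement of CCAAT). The runs are chr1:189688087-189688246 (minus strand), chr8:116921580-116921739 (plus) and chr10:72654686-72654845 (plus).
Cenpf: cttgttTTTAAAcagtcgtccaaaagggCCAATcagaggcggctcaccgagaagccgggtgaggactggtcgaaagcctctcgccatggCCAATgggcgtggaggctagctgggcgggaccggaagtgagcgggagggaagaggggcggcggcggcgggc
Cenpn: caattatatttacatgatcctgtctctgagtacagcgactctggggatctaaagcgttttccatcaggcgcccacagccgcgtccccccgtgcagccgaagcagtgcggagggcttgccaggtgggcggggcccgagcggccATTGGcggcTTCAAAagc
Zwint: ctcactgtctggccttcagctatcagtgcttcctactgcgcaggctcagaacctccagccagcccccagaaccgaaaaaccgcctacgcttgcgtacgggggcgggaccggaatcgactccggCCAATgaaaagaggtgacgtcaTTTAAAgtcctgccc
Zwint held a CHR match 15 bases and a CCAAT box 37 bases before its start and a second CCAAT box 13 bases after it. Cenpn held one of each, both as reverse complements, 9 and 18 bases before its start. Of the 28 genes with a window that passed the test described next, 12 held a CHR match in the window, and of the 10 that did not pass, 8 did.

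Levels are CPM, counts scaled to a common library size with TMM factors, and fold changes are KO minus WT on the log2 scale with a standard error (SE). Adjusted p-values come from edgeR's two-sided quasi-likelihood test over all 13265 rows tested. Total counts lay between 29679405 and 32774905 per library. The 44 genes together took 112585 to 127524 counts in the WT libraries, 94206 in KO replicate 1 and 32023 to 50493 in KO replicates 2 to 4. No single count was below 52, so sampling of reads adds little to the spread between libraries. Tead1 was at 319, 155, 142 and 209 CPM in WT replicates 1 to 4 and at 51.2, 64.8, 76.3 and 77.8 CPM in KO replicates 1 to 4, with no overlap, and Tead4 was at 52.1, 36.7, 39.4 and 63.2 against 25.8, 23.3, 31.2 and 37.01 CPM, with overlap. Both fell (Tead1, log2 fold change -1.61, SE 0.27, adjusted p = 0.00217; Tead4, log2 fold change -0.71, SE 0.22, adjusted p = 0.0261), and KO replicate 1 had the lowest Tead1 value of all 8 libraries. Whether reads came from the edited stretch is not known from gene totals. Of 11 epithelial markers, Epcam was at 0 in all 8 libraries, Cdh1 had at most 5 counts, and Krt18 and Krt20 were detected, while the list summed to 56.8 to 106 CPM in WT and 105 to 143 CPM in KO. A list of 8 fibroblast genes summed to 1409 to 2127 CPM in WT and 1744 to 2341 CPM in KO, with Thy1 at 2 counts or fewer and Col1a2 making up most of the sum. Of its 6 tested genes 4 rose and none fell, with no overlap between genotypes, namely Dcn, Col3a1 (2.19, adjusted p = 0.0152), Pdgfra (2.16, 0.000837) and Pdgfrb (1.09, 0.0260). Over all rows tested 20.9% passed as higher, and in 21.1% all 4 KO values lay above all 4 WT values. Dcn had at most 4 counts in a WT library and 75 to 496 counts in the KO libraries. Of the 3 epithelial genes tested, Krt18 rose (log2 fold change 0.99, edgeR adjusted p = 0.00107). Krt8, with at most 33 counts, did not pass (1.43, edgeR adjusted p = 0.121), though its KO values all lay above its WT values. Krt20 did not pass and its values overlapped (0.45, edgeR adjusted p = 0.289). Of 8 leukocyte markers 5 to 7 were at 0 in each WT library and 3 to 6 in each KO library (sums 1.31 to 3.35 and 9.11 to 12.5 CPM). Nearly all of the leukocyte sum was Cd68, the 1 gene of that list tested, which rose (log2 fold change 2.39, edgeR adjusted p = 0.00167). The 4 endothelial markers summed to at most 0.520 CPM. The part of these differences in the results was not tested.

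Genes of every role group fell in the knockout libraries. Of the 44 genes, 33 passed as lower and none as higher, where 20.6% of all rows tested passed as lower (2734) and 20.9% as higher (2779). Over all rows the split was 1962 lower and 3580 higher with upper-quartile scaling, and 2001 and 3474 with library size only, and 29 and 31 of the 44 genes were then lower. DESeq2 and limma-voom also called none of the 44 genes higher. All 44 fitted fold changes were negative, where 6485 of the 13265 rows tested were. Their median was -1.37 against 0.022 over all rows tested. The 4 KO values lay below the 4 WT values for 29 genes, where this holds for 19.6% of all rows tested. The count of 33 rested on the libraries used. It was 41 without KO replicate 1, 20 without KO replicate 3 and 21 without KO replicate 2. Over all rows the number lower was then 3409, 1768 and 1831, so it moved the same way. The count of the 44 genes was 8 when WT replicates 1 and 4, and 2 and 3, were each summed to 1 unit, and that of all rows was 1482. The summing was done since those pairs resembled each other more than the other WT pairs did. With that summing no SKA and no passenger complex gene passed, and 1 checkpoint gene, 1 shugoshin gene and 2 genes each of the corona, the outer and the inner kinetochore did.

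**Figure D1:**
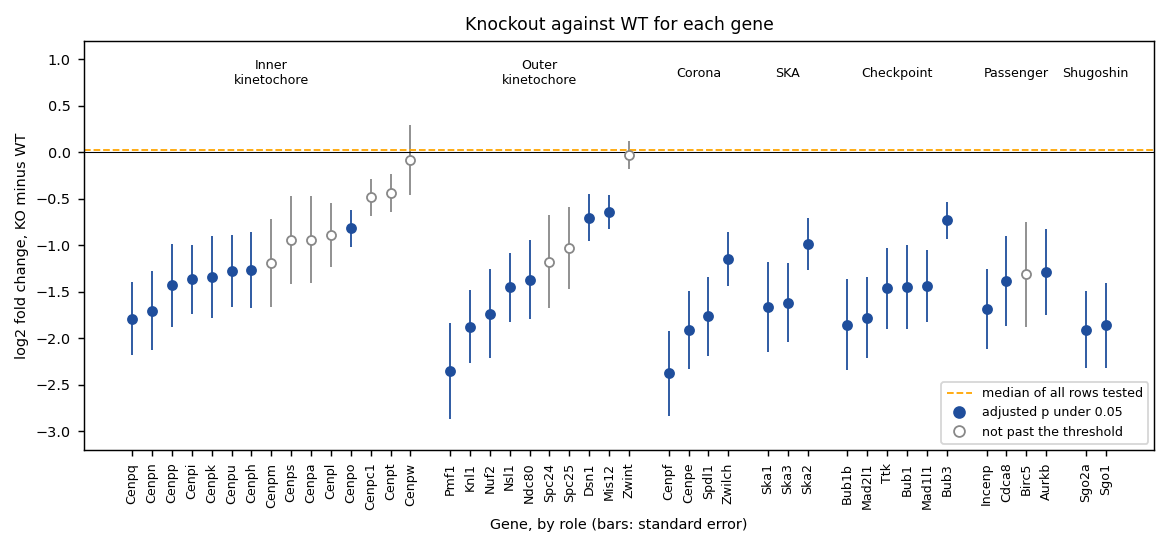
Log2 fold change, KO minus WT, of each of the 44 genes (horizontal axis, grouped by role), with bars for the standard error. Filled points passed at an adjusted p under 0.05 (33 genes), open points did not (11), and the dashed line is the median of all rows tested, 0.022.

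By role, the share that passed was lowest in the inner kinetochore, where 8 of 15 genes fell (median log2 fold change -1.19), and the outer KMN network, where 7 of 10 fell (median -1.27). All 4 corona genes (median -1.84), all 3 SKA genes (-1.62), all 6 checkpoint genes (-1.45) and both shugoshins (-1.88) fell, and 3 of 4 passenger complex genes did (-1.35). With 1 library left out, 4 to 13 inner kinetochore, 4 to 9 outer kinetochore, 1 to 3 SKA, 4 to 6 checkpoint and 1 to 4 passenger complex genes passed, and the corona and shugoshin counts stayed at 4 and 2. Upper-quartile scaling left 1 passenger complex gene. These are counts and medians of short lists, and no test of the difference between role groups was made.

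In the mean log2 level of the 44 genes, the KO libraries spanned 1.88 and the WT libraries 0.137. Single genes could go the other way in CPM, as did Cenpc1 (SD 16.7 in WT and 2.94 in KO) and Zwint (41.3 and 15.1). KO replicate 1 was the highest of the 4 KO libraries for all 44 genes, where this holds for 40.8% of all rows tested, and KO replicate 4 was the lowest for 40 (28.5% of rows) and KO replicate 3 for the other 4. KO replicate 1 also stood apart over the whole table, with 14345 rows above 0 counts. KO replicates 2 to 4 had 17759 to 17948 such rows and the WT libraries 14566 to 15430. The part of this difference in the results was not tested. The level in KO replicate 1 had a median of 78.5% of the WT mean over the 44 genes (range 38.4% to 170%), while the mean of KO replicates 2 to 4 had a median of 25.1% (range 11.8% to 95.9%). KO replicate 1 lay within the range of the WT values for 14 genes (31.8%), above it for Cenpw and below it for 29 (65.9%). Over all rows tested the shares were 34.8% within, 33.2% above and 32.0% below. The share within the range was thus close to that of all rows. KO replicates 2 to 4 all lay below every WT library for 42 of the 44 genes, against 28.3% of all rows tested. The 2 exceptions, named after their values were seen, were Cenpw and Zwint. Of the 14 genes with KO replicate 1 inside the WT range, 4 passed (Cenph, Cenpk, Dsn1 and Aurkb, edgeR adjusted p between 0.0324 and 0.0476).

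**Figure D2:**
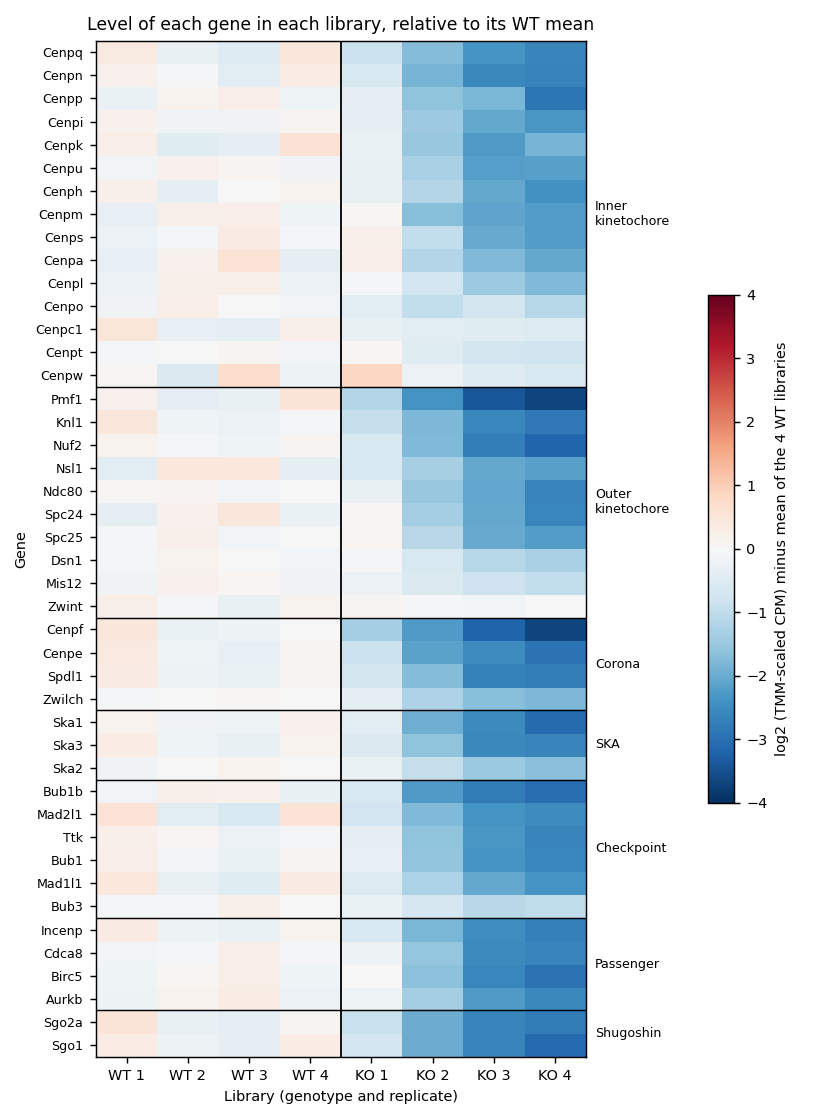
Level of each gene (rows, grouped by role) in each of the 8 libraries (columns), as log2 CPM minus the mean of the 4 WT libraries. Blue is lower and red is higher than WT. KO replicate 1 is the palest of the KO columns in each role group as a whole. Single genes can differ, as does Cenpw, where KO replicate 1 is red and lies furthest from WT. Zwint and Cenpc1 are among the genes that stay pale in all 4 KO columns.

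The same order of libraries was seen outside these genes. In a list of 20 other mitotic genes, none of them among the 44, 15 fell and none rose (median log2 fold change -1.60). In a list of 20 S phase and replication genes, 18 fell and none rose (median -1.39). Over all rows tested 20.6% passed as lower and 20.9% as higher. The mean log2 level of the mitotic list, relative to all 8 libraries, lay between 0.75 and 1.15 in WT, at 0.44 in KO replicate 1 and at -0.79, -1.52 and -1.85 in KO replicates 2, 3 and 4. The 44 genes followed it with 0.70 to 0.83 in WT, then 0.38, -0.64, -1.27 and -1.50. Ect2, a cytokinesis regulator (-2.22, SE 0.45), and the proliferation marker Mki67 (-2.18, SE 0.45) had the smallest p of the mitotic list, and Pola1, the catalytic subunit of DNA polymerase alpha (-1.25, SE 0.23), and the helicase subunit gene Mcm6 (-1.70, SE 0.34) those of the S phase list. Their edgeR adjusted p lay between 0.00346 and 0.00514.

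**Figure D3:**
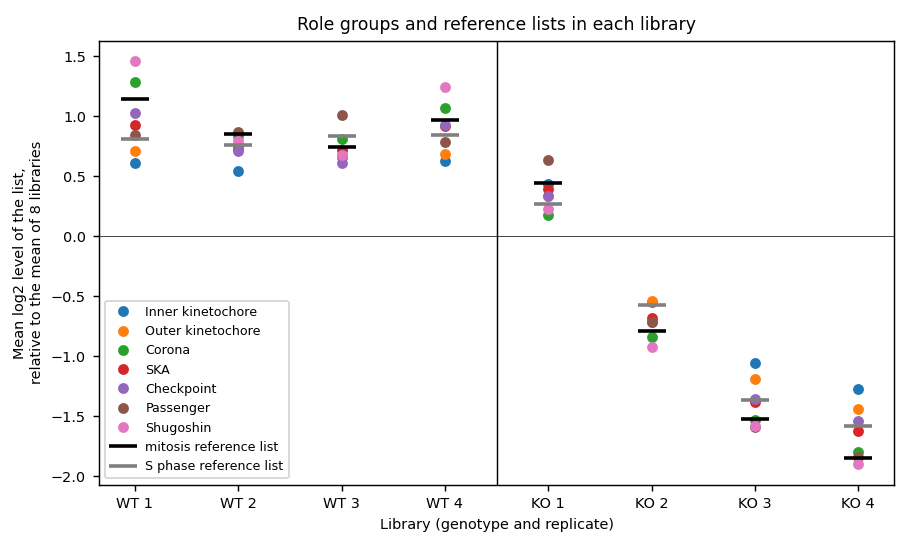
Mean log2 level of each role group (coloured points) and of the mitosis and S phase reference lists (bars) in each library, relative to the mean over 8 libraries. In WT all lie between 0.54 and 1.46, in KO replicate 1 between 0.17 and 0.64, and in KO replicate 4 between -1.27 and -1.90.

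Of the 15 inner kinetochore genes 8 passed as lower. The number depended on the libraries used, with 13 without KO replicate 1 and 4 without KO replicate 2 or 3. Cenpq (ENSMUSG00000023919, chromosome 17, 40923051 to 40935047, minus strand), a subunit of the CENP-OPQUR complex, had both the smallest p and the lowest fold change of the group. It was at 79.3, 51.1, 43.4 and 84.7 CPM in WT replicates 1 to 4 and at 34.3, 18.5, 12.04 and 9.99 CPM in KO replicates 1 to 4. The groups did not overlap, with KO replicate 1 nearest to WT (64.6 ± 20.4 to 18.7 ± 11 CPM, SD, n = 4; log2 fold change -1.79, SE 0.39, adjusted p = 0.00659). Its partner Cenpu fell by 1.28 on the log2 scale, Cenpp by 1.43 and Cenpo by 0.82, all members of the same complex. The call for Cenpo (adjusted p = 0.00961) held with each library left out, and those for Cenpp and Cenpu were lost without KO replicate 2 (adjusted p = 0.0748 and 0.0644) or KO replicate 3 (0.0706 and 0.0560), among others.

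Cenpn, which binds the CENP-A nucleosome, fell from 65.8 ± 13.2 to 20.2 ± 14.9 CPM (SD, n = 4; log2 fold change -1.70, SE 0.43, adjusted p = 0.0114), while its partner Cenpl did not pass (-0.89, adjusted p = 0.0604). Cenpl passed without KO replicate 1 (-1.31, edgeR adjusted p = 0.00475), and also with DESeq2 (adjusted p = 0.0292), limma-voom and the replicate block. In the CENP-HIKM complex, Cenpi fell (log2 fold change -1.36, SE 0.37, adjusted p = 0.0164) with each library left out. Cenph (-1.26) and Cenpk (-1.34) fell with a wider spread and lost the call with 5 of the 8 libraries left out (adjusted p up to 0.0763 and 0.0907). Cenpm had a fold change of -1.19 (adjusted p = 0.0684) and passed when KO replicate 1 was left out (-2.03, adjusted p = 0.000374), the 1 library of 8 whose omission gave a call. It also passed with DESeq2 (0.0210), limma-voom (0.0160) and the replicate block (0.0329).

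Cenpa, the gene of the centromeric histone itself, was at 82.7, 117, 152 and 81.7 CPM in WT replicates 1 to 4 and at 125, 46.1, 30.7 and 25.1 CPM in KO replicates 1 to 4. KO replicate 1 lay among the WT values and the other 3 lay below all of them (log2 fold change -0.94, SE 0.47, adjusted p = 0.134). Without KO replicate 1 the fold change was -1.69 (adjusted p = 0.00229). Cenps, a histone-fold subunit, had nearly the same profile (-0.94, adjusted p = 0.135, and 0.00357 without KO replicate 1).

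Cenpc1, which encodes the scaffold that links CENP-A to the outer kinetochore, was at 79.2, 45.7, 44.6 and 65.6 CPM in WT and 46.3, 41.4, 41.2 and 39.4 CPM in KO. The KO values were close together, and KO replicate 1 lay above WT replicates 2 and 3 (log2 fold change -0.48, SE 0.20, adjusted p = 0.0744). It passed without WT replicate 2 or 3 (adjusted p = 0.0467 and 0.0310) and did not pass without KO replicate 1 (0.0634). Cenpt, the second link to the outer kinetochore, was at 32.2, 34.2, 36.5 and 31.3 against 35.5, 24.2, 20.2 and 19.3 CPM (log2 fold change -0.44, SE 0.20, adjusted p = 0.104) and passed without KO replicate 1 (0.00467). Its histone-fold partner Cenpw had the fold change nearest to 0 of the group, with 11.4, 7.17, 17.4 and 9.33 CPM in WT and 19.2, 9.17, 7.47 and 6.85 CPM in KO. The groups overlapped (log2 fold change -0.085, SE 0.38, adjusted p = 0.874), and the sign was positive with upper-quartile or library-size scaling and without WT replicate 3, KO replicate 3 or KO replicate 4.

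Among the outer kinetochore genes the response ranged from the second lowest fold change of the 44 genes to the one nearest 0. Pmf1 (ENSMUSG00000028066, chromosome 3, 88394143 to 88410331, minus strand), a subunit of the MIS12 complex, had the lowest fold change of the group. It was at 100.5, 68.5, 72.1 and 129 CPM in WT replicates 1 to 4 and 39.8, 17.02, 8.58 and 7.06 CPM in KO replicates 1 to 4. No value overlapped, and the WT mean was 5.10 times the KO mean (92.4 ± 28.01 to 18.1 ± 15.1 CPM, SD, n = 4; log2 fold change -2.35, SE 0.51, adjusted p = 0.00662). WT replicates 1 and 4 were its highest libraries. Knl1 (ENSMUSG00000027326, chromosome 2, 119047119 to 119105501, plus strand), the platform on which BUB proteins dock, had the smallest p, with 147, 96.2, 91.5 and 106 CPM in WT and 56.7, 30.9, 17.8 and 14.9 CPM in KO (log2 fold change -1.87, SE 0.39, adjusted p = 0.00569).

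Zwint (ENSMUSG00000019923, chromosome 10, 72654845 to 72674964, plus strand), which binds KNL1, had the fold change nearest to 0 of all 44 genes. It was at 302, 249, 207 and 281 CPM in WT and 274, 247, 240.3 and 260.1 CPM in KO, and all 4 KO values lay inside the WT range (259.7 ± 41.3 and 255 ± 15.1 CPM, SD, n = 4; log2 fold change -0.024, SE 0.15, adjusted p = 0.913). Its fitted sign was positive with upper-quartile or library-size scaling, with the filter at 5 CPM, with annotated genes only and without WT replicate 1 or KO replicates 2 or 3. Per kilobase of exon it had the highest level of the 44 genes in both genotypes (58.6 CPM per kb in WT and 57.6 in KO). The next highest in WT, the checkpoint gene Bub1b, went from 54.7 to 15.2 CPM per kb.

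Within the MIS12 complex, Nsl1 fell (log2 fold change -1.45, SE 0.37, adjusted p = 0.0126), Mis12 fell by a smaller amount (log2 fold change -0.64, SE 0.18, adjusted p = 0.0178) and Dsn1 passed narrowly (log2 fold change -0.70, SE 0.25, adjusted p = 0.0464). Dsn1 lost the call with 7 of the 8 libraries left out, all but KO replicate 1 (adjusted p between 0.0615 and 0.116), and Mis12 without KO replicate 3 or 4 (0.0563 and 0.0550). In the NDC80 complex, which binds the microtubule, Nuf2 fell from 145 ± 14.9 to 43.5 ± 35.7 CPM (SD, n = 4; log2 fold change -1.74, SE 0.48, adjusted p = 0.0171) and Ndc80 from 72.9 ± 4.48 to 28.2 ± 21.03 CPM (log2 fold change -1.37, SE 0.42, adjusted p = 0.0268). Ndc80 lost the call without WT replicate 1 or 2 or KO replicate 2 or 3 (0.0513 to 0.0720). The other subunit genes of the complex, Spc24 and Spc25, did not pass (-1.17 and -1.03, adjusted p = 0.0831 and 0.0847). Their KO replicate 1 values, 32.7 and 70.9 CPM, lay within the WT values, and without that library they passed (0.00201 and 0.00148).

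**Figure D4:**
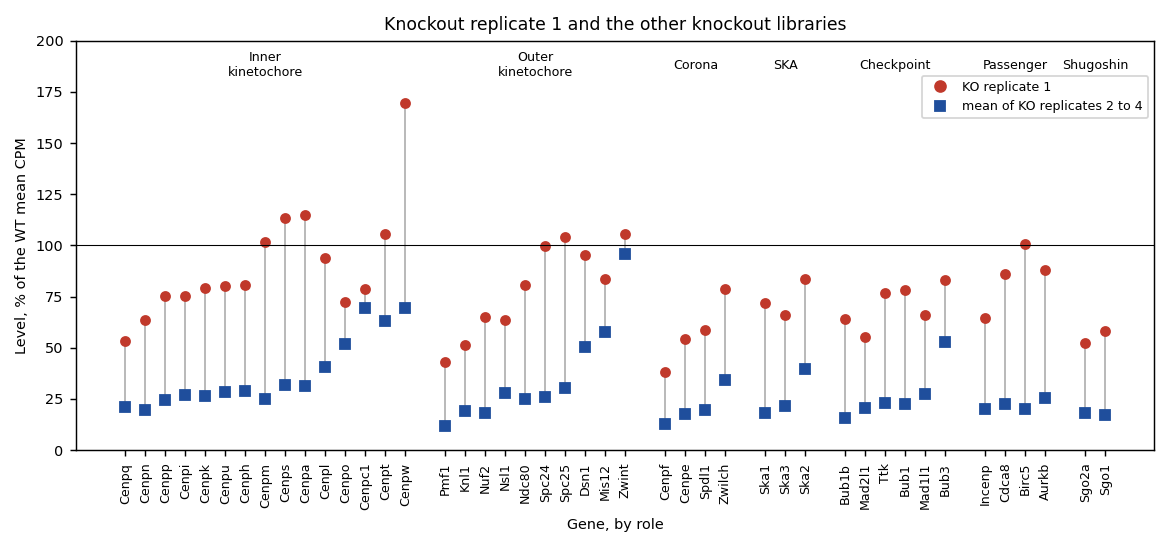
Level of each gene in KO replicate 1 (circles) and the mean of KO replicates 2 to 4 (squares), in percent of the WT mean CPM, by role. The circles have a median of 78.5% and the squares of 25.1%, and the squares of Zwint (95.9%), Cenpc1 and Cenpw (both 69.2%) are the highest.

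The corona is the outermost layer that forms on unattached kinetochores, and its 4 genes fell together. Cenpf (ENSMUSG00000026605, chromosome 1, 189640606 to 189688086, minus strand), a large protein that accumulates in G2, had the lowest fold change of the 44 genes. It was at 482, 295, 307 and 356 CPM in WT replicates 1 to 4 and 138, 73.8, 37.98 and 27.8 CPM in KO replicates 1 to 4. The highest KO value was below the lowest WT value, and the WT mean was 5.18 times the KO mean (359.96 ± 85.2 to 69.5 ± 49.9 CPM, SD, n = 4; log2 fold change -2.37, SE 0.46, adjusted p = 0.00402). Cenpe, the plus-end-directed kinesin that carries chromosomes to the metaphase plate, was lower by a factor of 3.75 (log2 fold change -1.91, SE 0.42, adjusted p = 0.00667), and Spdl1, the dynein adaptor Spindly, by a factor of 3.40 (log2 fold change -1.76, SE 0.42, adjusted p = 0.00952). Zwilch, a subunit of the RZZ complex, had the fold change nearest to 0, with 71.8, 72.9, 75.4 and 74.6 CPM in WT and 57.9, 31.4, 22.7 and 21.1 CPM in KO (log2 fold change -1.15, SE 0.29, adjusted p = 0.0127). The WT values of Zwilch were close together and the KO values were spread. The 4 calls held with each library left out.

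The SKA complex helps the kinetochore to keep hold of a shrinking microtubule. Ska3 had the smallest p, with 55.5, 39.9, 36.7 and 49.5 CPM in WT and 29.9, 14.7, 7.45 and 7.18 CPM in KO (log2 fold change -1.62, SE 0.43, adjusted p = 0.0143), and Ska1 the lowest fold change, with 56.01, 45.9, 45.1 and 57.4 against 36.7, 13.1, 8.73 and 5.99 CPM (log2 fold change -1.66, SE 0.48, adjusted p = 0.0215). Ska2 was at 40.2, 44.7, 48.8 and 43.3 CPM in WT and 37.03, 22.7, 15.6 and 14 CPM in KO (log2 fold change -0.99, SE 0.28, adjusted p = 0.0201). For all 3 the groups did not overlap. The log2 ratio of Ska1 to Ska2 differed by -0.92 (KO minus WT) and that of Ska3 to Ska2 by -0.76, and neither passed (exact permutation p = 0.0571 and 0.0571, adjusted over 21 pairs 0.15 and 0.15). The calls for Ska1 and Ska2 were lost without KO replicate 2 (adjusted p = 0.0640 and 0.0518) or KO replicate 3 (0.0526 and 0.0521), and that for Ska1 without WT replicate 1 (0.0507).

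Checkpoint genes fell in 6 of 6 cases, with no overlap between genotypes in any of them. Mad2l1, which encodes MAD2, the inhibitor of CDC20, had the smallest p. It was at 365, 184, 162 and 364 CPM in WT and 149, 73.2, 48.3 and 43.5 CPM in KO (269 ± 111 to 78.5 ± 48.7 CPM, SD, n = 4; log2 fold change -1.78, SE 0.43, adjusted p = 0.0102). WT replicates 1 and 4 were well above WT replicates 2 and 3, and the lowest WT library was only slightly above KO replicate 1. Bub1b (ENSMUSG00000040084, chromosome 2, 118598211 to 118641591, plus strand), which encodes BUBR1, had the lowest fold change, with 217, 267, 261 and 189.9 CPM in WT and 149.96, 47.8, 33.3 and 28.1 CPM in KO (log2 fold change -1.85, SE 0.49, adjusted p = 0.0142). For Bub1b it was WT replicates 2 and 3 that were high.

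Bub3, the adaptor that brings BUB1 and BUBR1 to KNL1, had the fold change nearest to 0. It was at 120.1, 120.01, 147 and 126 CPM in WT and 107, 80.2, 59.1 and 63.4 CPM in KO, lower by a factor of 1.66 (log2 fold change -0.73, SE 0.20, adjusted p = 0.0150). The call held with each library left out, as did those for Mad2l1, Bub1b and Mad1l1 (-1.44, SE 0.39), which encodes the kinetochore anchor of MAD2. The kinase genes Bub1 (log2 fold change -1.45, SE 0.45, adjusted p = 0.0274) and Ttk (log2 fold change -1.46, SE 0.43, adjusted p = 0.0230), which encodes MPS1, lost theirs with 5 and 3 of the 8 libraries left out (up to 0.0730 and 0.0645).

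In the chromosomal passenger complex, the scaffold gene Incenp (ENSMUSG00000024660, chromosome 19, 9872296 to 9899551, minus strand) had the smallest p and the lowest fold change. It was at 223, 155, 146 and 193 CPM in WT and 116, 49.3, 31.8 and 26.4 CPM in KO, with no overlap (179 ± 35.5 to 55.9 ± 41.4 CPM, SD, n = 4; log2 fold change -1.68, SE 0.43, adjusted p = 0.0122). Aurkb, the kinase of the complex, was at 117, 149, 166 and 115 CPM in WT and 120.2, 52.96, 28.3 and 22.7 CPM in KO. KO replicate 1 lay between the WT values, the other 3 were all lower, and the gene passed narrowly (log2 fold change -1.29, SE 0.46, adjusted p = 0.0476). Cdca8, which encodes borealin (log2 fold change -1.38, SE 0.48, adjusted p = 0.0424), and Aurkb each lost the call with 7 of the 8 libraries left out, all but KO replicate 1 (up to 0.103 and 0.107). Birc5, which encodes survivin, was at 117, 138, 156 and 116 CPM in WT and 132, 41.5, 21.5 and 16.9 CPM in KO and did not pass (log2 fold change -1.31, SE 0.56, adjusted p = 0.0855), with KO replicate 1 again inside the WT range. Without KO replicate 1 its fold change was -2.32 (adjusted p = 0.000786).

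Both shugoshin genes fell, and their calls held with each library left out. Sgo2a had the smallest p and the lowest fold change, with 207, 118, 113 and 156 CPM in WT and 77.9, 36.9, 23.2 and 20.9 CPM in KO (149 ± 43.5 to 39.7 ± 26.4 CPM, SD, n = 4; log2 fold change -1.91, SE 0.41, adjusted p = 0.00624). Sgo1 was at 140.1, 97.9, 86.4 and 138 CPM in WT and 67.2, 28.9, 18.3 and 13.02 CPM in KO (log2 fold change -1.86, SE 0.46, adjusted p = 0.0109). In both genes the highest KO library, replicate 1, stayed below the lowest WT library, replicate 3. Exons of Sgo2a overlap 2455 bases of Kctd18 on the other strand. No source used here says whether counting used strand, so reads of the pair may be mixed. Kctd18 went the other way (log2 fold change 0.65, adjusted p = 0.0182). In all, 11 of the 44 genes share exon bases with a gene of the table on the opposite strand, among them Cenpo with Adcy3 (1380 bases) and Cenpu with Primpol (1069 bases), both of which did not pass (-0.085 and 0.35). Other such genes fell along with the kinetochore gene, namely Ippk, which overlaps Cenpp by 315 bases (-0.75, adjusted p = 0.00723), and Ppwd1, which overlaps Cenpk by 233 bases (-0.65, adjusted p = 0.0145).

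The WT libraries split into the same pairs for most of the 44 genes. WT replicates 1 and 4 were both above WT replicates 2 and 3 for 21 genes (47.7%), and both below for 17 (38.6%), leaving 6. Over all rows tested the shares were 32.8% and 35.4%, so such a split was common and not limited to these genes. Of the 21 genes high in WT replicates 1 and 4, which include Cenpf, Cenpe, Knl1, Pmf1, Mad2l1, Incenp and both shugoshins, 19 passed as lower in KO. Of the 17 that were high in WT replicates 2 and 3, which include Cenpa, Birc5, Aurkb, Bub1b, Nsl1 and Spc24, 10 passed. The share of all rows with each split that passed as lower was not computed. Whether the contrast is particular to these genes is therefore not known. The labels do not say what WT replicates 1 and 4 share.

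A ratio of 2 subunits within a library does not depend on how libraries are scaled, and it was compared for 21 pairs of partners. None of the 21 differed between genotypes after Benjamini-Hochberg adjustment over the pairs (exact two-sided permutation test over 70 assignments). For 4 pairs the unadjusted exact permutation p was 0.0286, the smallest this design can give, and at least 12 pairs at that value would have been needed to pass. These 4 had an adjusted permutation p of 0.15. The log2 count ratio of Zwint to Knl1 was 1.03, 1.37, 1.18 and 1.41 in WT replicates 1 to 4 and 2.27, 2.998, 3.75 and 4.13 in KO replicates 1 to 4, a difference of 2.04 with no overlap. That of Bub1b to Bub3 was 0.85, 1.15, 0.83 and 0.59 in WT and 0.49, -0.75, -0.83 and -1.18 in KO (difference -1.42), also with no overlap. Smaller differences without overlap were found for Ndc80 to Nuf2 (0.44) and Mad2l1 to Mad1l1 (-0.30). The 2 shugoshins (-0.046), Cenph and Cenpk (-0.0044), and Cenpi and Cenpm (-0.063) had the ratios that moved least, with overlapping values. In Cenpa to Cenpc1 (-0.75), KO replicate 1 was above the WT mean and the other KO libraries below it.

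**Figure D5:**
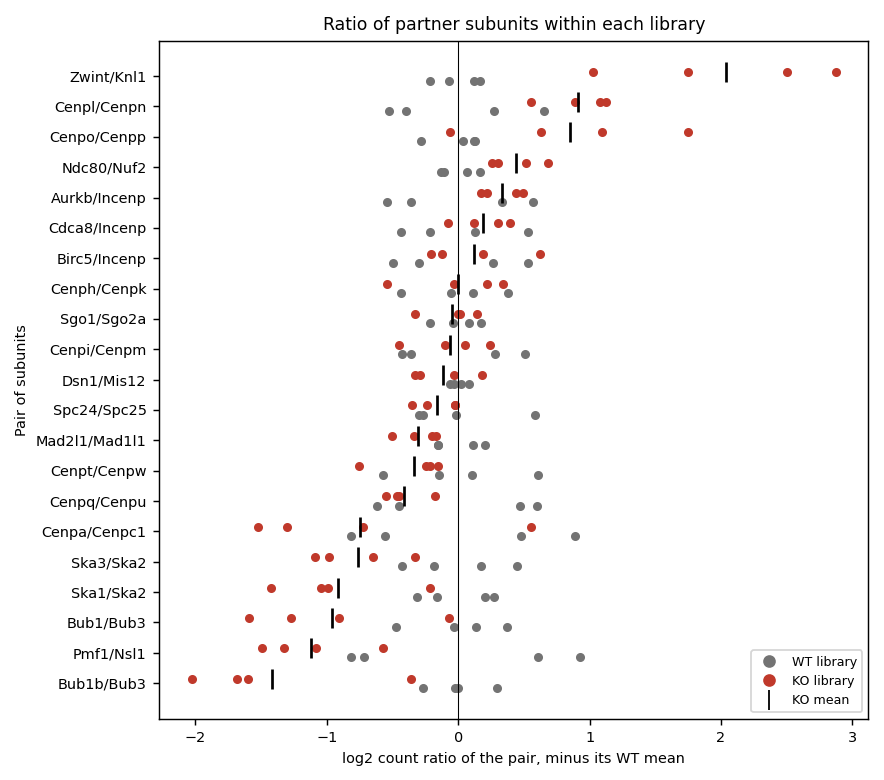
Log2 ratio of the counts of 2 partner subunits in each library, minus the mean of the 4 WT libraries, for 21 pairs ordered by the KO mean (vertical ticks). Grey points are WT and red points KO libraries. Zwint/Knl1 lies highest (2.04) and Bub1b/Bub3 lowest (-1.42).

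Beyond the 44 genes, 63 other genes of the same pathway were tested, of which 32 fell and 3 rose (median log2 fold change -0.71). Of 9 further corona and motor genes 8 fell and 1 rose, of 7 checkpoint effector and silencing genes 5 fell, of 13 cohesion and separation genes 8 fell, and of 6 CENP-A deposition genes 3 fell. Among 16 genes of the anaphase-promoting complex (APC/C), the ubiquitin ligase that the checkpoint restrains, and its E2 enzymes, 6 fell and 1 rose, and of 9 phosphatase genes 1 fell and 1 rose. Of 3 further inner kinetochore genes 1 fell. Over all rows tested 20.6% passed as lower and 20.9% as higher. These lists are short, and none was tested against those shares.

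The 4 with the smallest p were Anapc13, Clasp2, Kntc1 and Cdc16. The APC/C subunit gene Anapc13 rose, from 2.69, 4.64, 5.76 and 3.12 CPM in WT to 16.5, 14.1, 13.6 and 11.5 CPM in KO (log2 fold change 1.78, SE 0.27, adjusted p = 0.00153), while the APC/C subunit gene Cdc16 fell, from 89.5, 86.1, 88.8 and 92.99 to 57.6, 53.5, 59.5 and 57.97 CPM (log2 fold change -0.64, SE 0.12, adjusted p = 0.00296). In neither was KO replicate 1 the KO library nearest to WT. The microtubule anchor gene Clasp2 fell from 67.3 ± 3.22 to 38.6 ± 4.59 CPM (SD, n = 4; log2 fold change -0.80, SE 0.13, adjusted p = 0.00222), and Kntc1, which encodes the ROD subunit of the RZZ complex, from 113 ± 7.05 to 37.96 ± 16 CPM (log2 fold change -1.58, SE 0.27, adjusted p = 0.00244). The other increases were Ndel1, a dynein regulator (log2 fold change 0.40, SE 0.14, adjusted p = 0.0422), and Ppp2r5b, a regulatory subunit of phosphatase PP2A (log2 fold change 0.53, SE 0.17, adjusted p = 0.0319).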

How the data were processed

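RNA was extracted with TRIzol and 1 mRNA library was made per sample, per the labels' protocols. The submitters' processing notes name HISAT2, StringTie and the build GRCm38 and give no version. Which program counted reads, and whether it used strand, was not given in the sources used here. Whole-number counts for 26642 genes and loci were deposited by the authors in 2 tables that hold the same values. Those with gene symbols were used. Coordinates and exon lengths come from GENCODE release M21 (GRCm38).

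Rows were filtered with filterByExpr (minimum count 10, minimum total 15), scaled with TMM and tested by quasi-likelihood in edgeR 4.0.16 under R 4.3.3 (glmQLFit, then glmQLFTest), with no covariates and Benjamini-Hochberg adjustment over 13265 rows, at an adjusted p under 0.05. SE is the size of the log2 fold change divided by the square root of F. A prior count of 0.5 was used in ratios. Pairwise chi-square per degree of freedom between replicates was 34.7 to 257, so no pair agreed within sampling noise. The closest pairs were WT replicates 1 and 4 (34.7) and 2 and 3 (35.0). The genes, role groups and lists were chosen with earlier results of these data known. Every gene may be named. Values in every library are given for the smallest p, the lowest and the nearest-to-0 fold change of each role group, and others were added after their values were seen. Of the other lists, the genes with the smallest p and all that rose are named. The alternatives were other scalings, filters, tests (DESeq2 1.42.0, limma 3.58.1), thresholds, a replicate block and left-out or summed libraries. One listed name, Gsg2, an older symbol of Haspin, matched no row. One promoter site is not reported here.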

Additional observations from a re-analysis of the deposited data

Results flagged for a closer look

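In 3 of 88 groups of 4 libraries (44 genes, 2 genotypes), 1 library stood apart from the other 3 by a gap that took up most of the group's range (Dixon's test at 95%). Chance flags about 1 in 20 such groups. Cenpm in KO replicate 1 was at 37.8 CPM, with 7.85 to 11.2 CPM in the other KO libraries. Bub1b in KO replicate 1 was at 149.96 CPM, with 28.1 to 47.8 CPM in the others. Cdca8 in WT replicate 3 was at 88.1 CPM, with 68.8 to 70.7 CPM in the other WT libraries.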

How the results depend on the processing

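The count of 33 was the same with DESeq2's size factors and with annotated genes only, and none of the 44 genes was called higher under any alternative. With the 7 libraries left after dropping 1, the number of genes lower lay between 20 and 41, their median log2 fold change between -2.01 and -1.13, and the counts over all rows between 1768 and 3409 lower and between 2041 and 3420 higher. Of the 33 calls, 20 held with each of the 8 libraries left out, and 13 were lost at least once. An adjusted p under 0.01 left 8 of the 44 genes (1248 rows lower, 1488 higher), and requiring a log2 change beyond 0.5 in the test left 16 (1053 and 1550). Summing WT replicates 1 and 4, and 2 and 3, left 8 (1482 and 1652), namely Cenpe, Cenpf, Cenpo, Cenpq, Knl1, Mad2l1, Pmf1 and Sgo2a. This leaves 2 WT units against 4 KO libraries. The median of the 44 genes was -1.21 when scaled to the upper quartile and -1.23 when scaled to library size alone, where the median of all rows rose from 0.022 to 0.20 under both. It was -1.31 with at least 5 CPM in 4 libraries and -1.58 with limma-voom. Same-numbered WT and KO libraries did not deviate together (correlations between -0.032 and -0.0028). The labels do not say whether they were prepared together, and correlations over 4 libraries per genotype cannot decide it. With the replicate block 38 of the 44 genes were lower, with a median of -1.59. No pair of partner subunits passed with a prior count of 2 either. With each library left out in turn (35 assignments) again 0 pairs passed, and 0 to 6 had an unadjusted exact permutation p under 0.05 (smallest adjusted p 0.1, without KO replicate 1). From 150 bases before to 50 after the start, 44.7% of the 38 genes held a CHR match (13.2% of tested genes), 68.4% a CCAAT box (35.7%) and 28.9% an E2F-type match (10.98%).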
